A study of Mus musculus with 9 samples.

Results

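Livers of mice that received WZB before D-gal/LPS were compared with livers of the control group, to describe which injury changes remained after pretreatment, which genes were at the control level and which lay beyond it. The members are the 3 libraries labelled WZB + D-gal/LPS (WZB-D-gal-LPS) and the 3 control libraries, which make 6 of the 9 libraries of the series. They were chosen by their labels alone. The other 3 libraries, from mice given D-gal/LPS without WZB (D-gal-LPS), served to define the injury changes and shared the control libraries with the comparison. All mice were males of the inbred strain C57BL/6, aged 6 to 8 weeks, and no genetic change is labelled in any group. The control group carries no treatment in its label, so whether it received a vehicle is not known from the sources used here, and doses, routes and times are not known either. The labels do not expand the letters WZB, and the design text speaks only of GLUT1 inhibitors given as pretreatment. The deposited table also holds 3 columns of FPKM values, headed W-1 to W-3, that match no sample label and were not used, and whether they bear on WZB given alone is not known from the labels. No group labelled as given WZB without D-gal/LPS was analysed here, so in this comparison an effect of WZB by itself and an effect of WZB on the injury cannot be told apart. The labels do not say that libraries of a group came from separate animals, so every p-value reflects the spread among libraries alone, which may be technical.

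D-galactosamine traps uridine nucleotides in hepatocytes and so blocks their RNA synthesis, which leaves them open to killing by tumour necrosis factor. Lipopolysaccharide (LPS), a wall component of Gram-negative bacteria, activates macrophages through the receptor TLR4 and makes them release tumour necrosis factor and other cytokines, and together the agents cause acute hepatocyte death in mice. GLUT1, the product of Slc2a1, is a basal glucose transporter whose level rises in activated macrophages, whereas hepatocytes take up glucose mainly through GLUT2, the product of Slc2a2.

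The whole liver libraries held 15072509 to 18106895 counts each, and 13583 of 34745 listed genes passed the filter on low counts. Levels are given as CPM, the counts of a gene scaled to a common library total, after scaling of the libraries by trimmed means (TMM), changes as log2 fold changes with their standard error, and calls are those of edgeR's quasi-likelihood test at a Benjamini-Hochberg adjusted p under 0.05 over all genes tested. On the first principal component, which held 72.1% of the variance, WZB-D-gal-LPS libraries lay at 36.5 to 41.2, D-gal-LPS libraries at 67 to 69.3 and control libraries at -110 to -104. The tissue label was checked on 8 hepatocyte markers, none of which was at 0 in any library, and their summed level was 132000 to 143000 CPM in WZB-D-gal-LPS and 87800 to 88400 CPM in control libraries. Scaling factors were 0.8721 to 0.9235 in WZB-D-gal-LPS and 1.06 to 1.101 in control libraries, so fold changes are relative to this scaling. Scaling by total counts moved the median of all genes by -0.254 on the log2 scale.

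Most of the transcriptome differed between pretreated injured livers and control livers. Of 13583 genes tested, 8236 were called (60.6%), of which 4430 were called higher (32.6%) and 3806 lower (28%) in WZB-D-gal-LPS than in control livers, with a median log2 fold change of 0.07. With total-count scaling the split was 3248 higher and 5061 lower, which is 39.1% higher among the calls against 53.8% with TMM. At least 2-fold changes were called for 2290 genes in the higher direction (16.9%) and 1861 in the lower direction (13.7%). The 3 WZB-D-gal-LPS libraries did not overlap the 3 control libraries for 65.9% of genes, with 35% higher and 30.9% lower. A gene was taken to be at the control level where 2 one-sided tests placed its change within 1.5-fold of control at an adjusted p under 0.05, and 1484 genes were (10.9%). That count was 786 without WZB-D-gal-LPS replicate 3, 916 without control replicate 3 and 5564 with a 2-fold margin. The remaining 29.8% were neither called different nor placed within 1.5-fold.

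Injury genes were defined as the 4185 genes called at least 2-fold different between D-gal-LPS and control livers, where 18.1% of genes tested were called higher and 12.7% lower at that size. Of these, 3678 (87.9%) were still called in the injury direction in WZB-D-gal-LPS livers, 13 (0.311%) were at the control level, 494 (11.8%) were undecided and none was called on the other side of control. Both comparisons share the control libraries, so the direction of an injury gene in one is not independent of its direction in the other. Among injury genes still off control, those called nearer to control than in D-gal-LPS livers were mainly genes that injury raised. Injury genes were chosen by their D-gal-LPS libraries, which this comparison uses again. Part of a shift towards control may therefore come from the choice. Of 2124 genes still higher, 962 (45.3%) were called lower in WZB-D-gal-LPS than in D-gal-LPS livers and 29 (1.37%) higher. Of 1554 genes still lower, 109 (7.01%) were called nearer to control, 84 (5.41%) further from it and 1361 (87.6%) in neither direction against D-gal-LPS livers. The difference was smaller among all genes called with injury at any size. Of those raised 33.7%, and of those lowered 14.6%, were called against D-gal-LPS livers in the direction opposite to injury. Over all genes, 13.8% were called higher and 14.7% lower in WZB-D-gal-LPS than in D-gal-LPS livers, and 1.33% and 4.48% in the same order at a size of at least 2-fold.

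**Figure D1:**
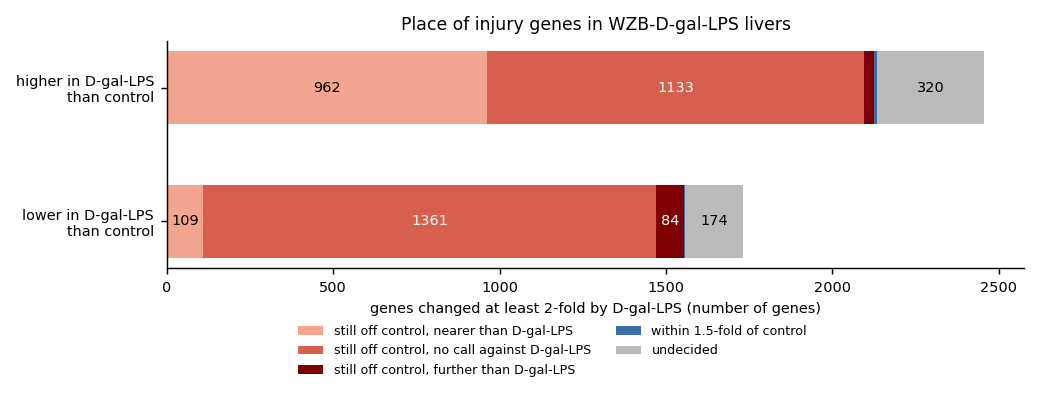
Number of injury genes (horizontal axis) that were higher (top bar) or lower (bottom bar) in D-gal-LPS than in control livers, split by their place in WZB-D-gal-LPS livers. Among genes that stayed off control, 962 raised and 109 lowered genes were called nearer to control than in D-gal-LPS livers, and the blue segments at the control level hold 10 and 3 genes.

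**Figure D2:**
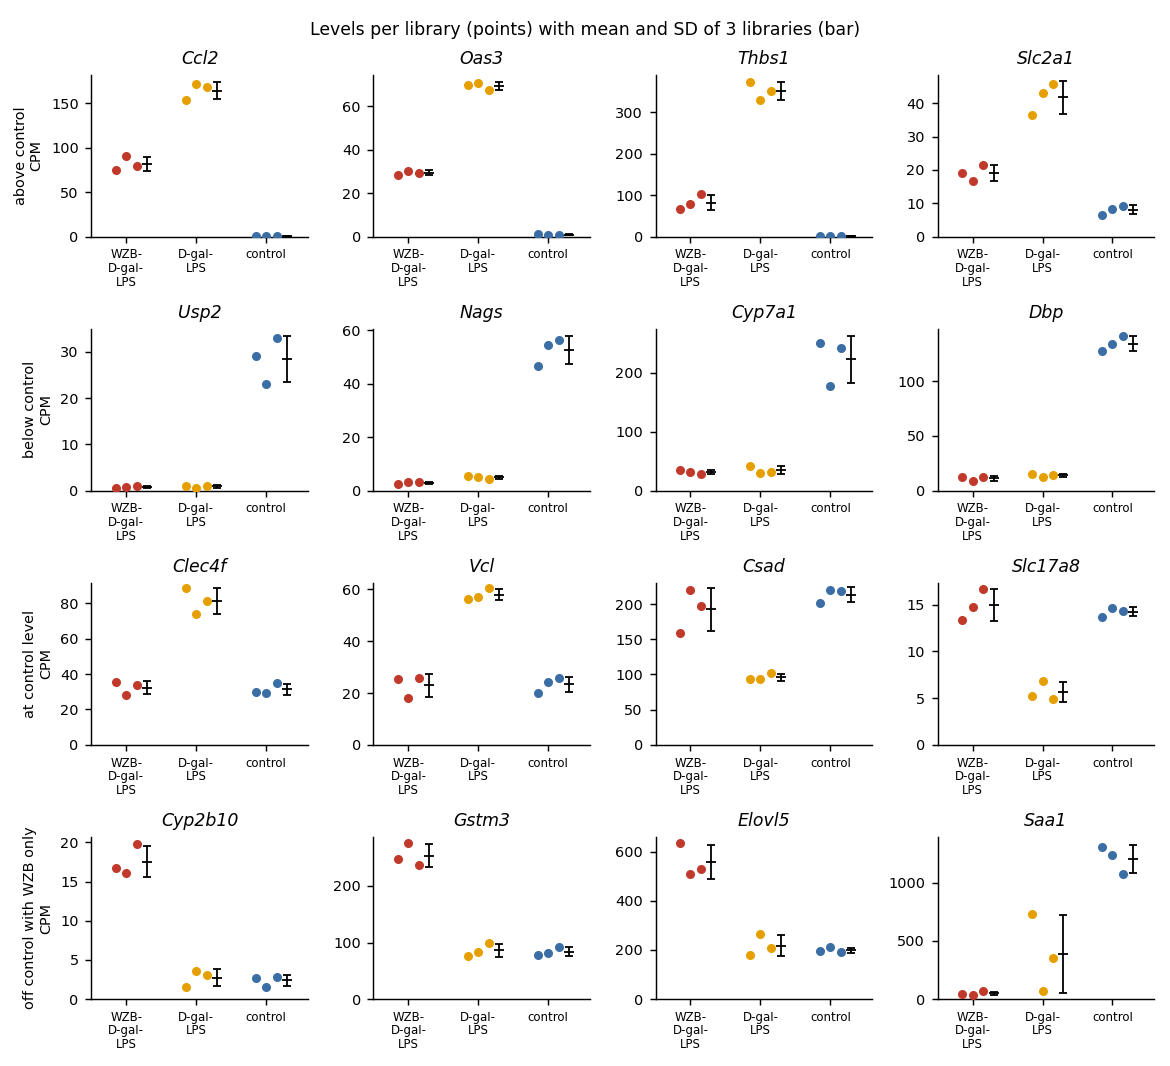
Levels in CPM (vertical axes, linear from 0) of 16 genes in each library (points), with the mean and SD of 3 libraries beside them. Rows show genes that stayed above control, stayed below control, were at the control level, and were called different from control with WZB only.

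Genes that stayed above control were ranked among those with 5 CPM or more in a group and no overlap of pretreated and control libraries. The 8 with the highest fitted change over control were mediators of inflammation, genes of myeloid cells and Fgf23. Of these, 7 had no count in any control library, so their fitted changes depend on a prior count and their folds are given as lower bounds set by 3 counts over the control group. The measured changes of Ccl2 and Thbs1, described below, exceeded the bounds of 6 of these 7 genes, so the 8 genes are not a ranking by measured fold. Ch25h, whose enzyme makes the oxysterol 25-hydroxycholesterol in activated macrophages, had 15.6, 12.4 and 15.7 CPM in WZB-D-gal-LPS, 42.8, 44.5 and 46.4 CPM in D-gal-LPS and 0 CPM in all 3 control libraries, at least 253-fold higher than control. The same bound was 97.1-fold for Tnip3, which binds the NF-kB inhibitor A20, 96.2-fold for Gpr84, a fatty acid receptor of myeloid cells, and 71.9-fold for Fgf23, a phosphate-lowering hormone made mainly by bone. It was 66.7-fold for Csf3, the growth factor of neutrophils, 61.8-fold for Lif, a cytokine of the interleukin-6 family, and 52.96-fold for Tarm1, an activating receptor of myeloid cells. All 7 were also called lower than in D-gal-LPS livers. Slfn4, a Schlafen gene of myeloid cells, had 420.5, 501 and 543 CPM in WZB-D-gal-LPS, 910.0, 856 and 886 CPM in D-gal-LPS and 0.553, 1.69 and 0.834 CPM in control libraries (8.89 ± 0.28, edgeR adjusted p = 1.33e-08). For all 8 genes every pretreated library lay between the control and the D-gal-LPS libraries. Their place above every control library was a condition of the choice.

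Cytokine genes remained raised in pretreated livers, most of them at lower levels than in D-gal-LPS livers. Of 14 cytokine genes tested, 13 were called higher and none lower than control, with a median log2 fold change of 3.48 in WZB-D-gal-LPS livers (also with the 4 genes absent from control at their bound) and 6.16 in D-gal-LPS livers, against 0.07 and -0.03 over all genes. With total-count scaling 11 were called. Medians in D-gal-LPS livers rest on fitted values where a list holds genes absent from control. Tnf, the cytokine that kills sensitised hepatocytes, had 11.7, 15.3 and 14.99 CPM in WZB-D-gal-LPS, 23.5, 30.3 and 26.9 CPM in D-gal-LPS and 0.369, 0.724 and 0.156 CPM in control libraries (5.08 ± 0.30 over control, edgeR adjusted p = 2.84e-08). Il1b, the inflammasome product, had 52.2, 62.9 and 67.7 CPM in WZB-D-gal-LPS, 108, 106 and 105 CPM in D-gal-LPS and 1.66, 1.51 and 0.938 CPM in control libraries (5.48 ± 0.17, edgeR adjusted p = 6e-11). Both genes lay in between, with no overlap of any 2 groups. Il6, which drives the acute phase response, had 1.27, 1.88 and 1.17 CPM in WZB-D-gal-LPS, 4.68, 7.84 and 5.72 CPM in D-gal-LPS and 0.369, 0.0603 and 0.156 CPM in control libraries (2.84 ± 0.50, edgeR adjusted p = 0.000254). Csf1, the growth factor of macrophages, rose by 2.08 ± 0.09. Il12b, a subunit of interleukins 12 and 23, was the member not called, with 0.142, 0.0754 and 0 CPM in WZB-D-gal-LPS, 1.96, 1.12 and 2.24 CPM in D-gal-LPS and no count in control libraries.

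The medians of the chemokine genes showed the same order of the groups. Of 19 tested, 17 were called higher and none lower than control. Their median was 3.87 in WZB-D-gal-LPS livers (3.56 with genes absent from control at their bound) and 4.98 in D-gal-LPS livers. Against D-gal-LPS livers 9 of the 19 were called lower and none higher. Ccl2, which attracts monocytes, had 74.4, 90.6 and 79.7 CPM in WZB-D-gal-LPS, 153, 171 and 168 CPM in D-gal-LPS and 0.676, 0.603 and 0.678 CPM in control libraries (6.95 ± 0.14, edgeR adjusted p = 1.76e-12). Ccl3, a ligand of the receptor CCR1, had 13.6, 16.1 and 16.1 CPM in WZB-D-gal-LPS, 43.7, 49.9 and 43.5 CPM in D-gal-LPS and 0.307, 0.241 and 0.365 CPM in control libraries (5.60 ± 0.19, edgeR adjusted p = 9.88e-11). Pretreated livers thus held more than the highest control library and less than the lowest D-gal-LPS library for both. Cxcl1, which attracts neutrophils, was placed within 1.5-fold of control, with 75.9, 56.6 and 66.3 CPM in WZB-D-gal-LPS, 86.3, 91.9 and 97.1 CPM in D-gal-LPS and 85.5, 50.6 and 60.3 CPM in control libraries, and the pretreated and control libraries overlapped.

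Interferon-stimulated genes, which encode antiviral effectors, stayed above control. Of 24 tested, 21 were called higher and Stat2 lower, with a median of 2.41 in WZB-D-gal-LPS and 3.37 in D-gal-LPS livers, and 20 of the 24 were called lower than in D-gal-LPS livers. Oas3, which makes the second messenger that activates RNase L, had 28.1, 30.3 and 29.4 CPM in WZB-D-gal-LPS, 69.6, 70.8 and 67.3 CPM in D-gal-LPS and 0.984, 0.784 and 0.730 CPM in control libraries (5.13 ± 0.14, edgeR adjusted p = 1.57e-11). Gbp3, a guanylate-binding protein gene, had 99.4, 83.7 and 98.8 CPM in WZB-D-gal-LPS, 190.2, 167 and 193 CPM in D-gal-LPS and 8.24, 8.02 and 9.80 CPM in control libraries (3.43 ± 0.11, edgeR adjusted p = 9.88e-11). Within each group the 3 libraries of both genes lay close together, and the groups did not overlap. Stat2, a subunit of the factor that binds interferon response elements, had 63.5, 66.2 and 73.2 CPM in WZB-D-gal-LPS, 128, 107 and 128 CPM in D-gal-LPS and 129.8, 119.8 and 136 CPM in control libraries (-0.92 ± 0.10, edgeR adjusted p = 2.28e-06), below both other groups.

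The core of the interferon-stimulated response element was looked for on both strands of the RefSeq promoters of GRCm38.p6, each 250 bases before to 50 bases after a gene's start. It was present in 13 of 21 promoters of the list (61.9%) and in 3.44% of all 32851 promoters. The stretches upstream of Oas3 and Gbp3 are shown because these genes had the smallest adjusted p of the list, with the matches in capitals. They lie at chr5:120777662-120777909 on the minus strand and chr3:142559794-142560025 on the plus strand. The match of Oas3 lay 75 to 66 bases before the start, and a pair of overlapping matches on the opposite strand of Gbp3 lay 45 to 30 bases before it. Gbp3 has 2 promoters, and the one not shown held no match. Where the deposited table starts a gene further upstream, its stretch was cut there, while positions count from the RefSeq start. A match is a description of the letters and not evidence of binding.
Oas3: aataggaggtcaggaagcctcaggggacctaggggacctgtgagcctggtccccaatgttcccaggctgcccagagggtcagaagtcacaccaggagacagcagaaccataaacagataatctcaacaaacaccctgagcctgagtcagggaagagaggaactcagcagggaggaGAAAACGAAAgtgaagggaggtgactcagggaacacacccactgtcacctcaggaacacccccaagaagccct
Gbp3: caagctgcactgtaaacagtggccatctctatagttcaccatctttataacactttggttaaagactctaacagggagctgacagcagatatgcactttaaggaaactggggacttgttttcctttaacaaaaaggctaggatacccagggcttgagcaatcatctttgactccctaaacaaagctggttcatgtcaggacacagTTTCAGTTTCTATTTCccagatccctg

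Of 19 NF-kB targets and inhibitors, 17 were called higher and 2 lower, with a median of 1.90 in WZB-D-gal-LPS and 2.40 in D-gal-LPS livers. Vcam1, an adhesion molecule for leukocytes on endothelium, had 112, 90.3 and 110.2 CPM in WZB-D-gal-LPS, 246, 231 and 257 CPM in D-gal-LPS and 7.44, 5.37 and 8.24 CPM in control libraries (3.89 ± 0.15, edgeR adjusted p = 5.28e-10). Sele, the endothelial selectin, rose by 5.73 ± 0.24 (edgeR adjusted p = 6.75e-10). The 2 members called lower were Bcl3 (-0.96 ± 0.10) and Nfkbib (-1.41 ± 0.12), both of which encode proteins of the inhibitor family of NF-kB. The binding motif of NF-kB was found in 10 of 18 promoters of the list (55.6%) and in 4.51% of all promoters. The stretch of Tnip3 at chr6:65590148-65590397, plus strand, is shown as that of the list's member furthest above control, with the motif, which reads as a match on both strands, in capitals 54 to 45 bases before the start.
Tnip3: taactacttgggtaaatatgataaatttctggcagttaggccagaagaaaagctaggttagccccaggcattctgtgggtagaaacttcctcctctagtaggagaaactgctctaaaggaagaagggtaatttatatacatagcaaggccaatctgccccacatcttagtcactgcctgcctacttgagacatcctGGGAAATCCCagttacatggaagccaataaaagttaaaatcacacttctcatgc

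Immediate early genes, which cells transcribe within minutes of a stimulus, and inflammasome genes also stayed high. Of 20 immediate early genes 19 were called higher and Jund lower, with a median of 2.64 in WZB-D-gal-LPS and 3.66 in D-gal-LPS livers. Nr4a1, an orphan nuclear receptor, rose by 4.16 ± 0.14 and Fosl2, a subunit of the factor AP-1, by 2.38 ± 0.10. Of 11 inflammasome genes 9 were called higher and none lower, Casp4 by 3.16 ± 0.14 and Mefv, the gene of pyrin, by 3.77 ± 0.20. Among 16 p53 target genes 9 were higher and 5 lower, with Gadd45b, a DNA damage and stress gene, at 57.4, 72.9 and 63.9 CPM in WZB-D-gal-LPS, 66.2, 51.8 and 66.4 CPM in D-gal-LPS and 3.69, 2.77 and 2.24 CPM in control libraries. For Gadd45b the WZB-D-gal-LPS and D-gal-LPS libraries overlapped (0.07 ± 0.15 between them, edgeR adjusted p = 0.755), and both lay far above control.

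Coagulation and fibrinolysis genes were raised as well. Of 18 coagulation and fibrinolysis genes 14 were called higher and none lower, with a median of 0.82 in WZB-D-gal-LPS and 0.52 in D-gal-LPS livers. Thbs1, the platelet and macrophage protein thrombospondin 1, had 65.7, 79.3 and 102 CPM in WZB-D-gal-LPS, 372, 330.5 and 352 CPM in D-gal-LPS and 0.738, 0.543 and 0.782 CPM in control libraries (6.88 ± 0.20, edgeR adjusted p = 2.47e-10). Pretreated livers were lower than D-gal-LPS livers by a call (-2.10 ± 0.14), and no pretreated library overlapped control. Plaur, the urokinase receptor, rose by 4.90 ± 0.20. Clotting factor genes of hepatocytes were among the called members at smaller sizes, such as F9 (0.80 ± 0.08) and F2 (0.72 ± 0.08).

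Marker genes of several cell types moved with these lists. In whole liver, more cells of a type and more RNA per cell cannot be told apart. Of 11 neutrophil markers tested 10 were called higher, with a median of 5.33 (5.25 with the gene absent from control at its bound), and their summed level was 351 to 395 CPM in WZB-D-gal-LPS, 554 to 623 CPM in D-gal-LPS and 221 to 250 CPM in control libraries. Lcn2, which hepatocytes also make, holds most of the sum in control libraries and was called lower (101, 119.8 and 118 CPM against 231, 243 and 215 CPM). S100a9, a defining neutrophil marker, had 83.7, 93.4 and 91.9 CPM in WZB-D-gal-LPS, 89.2, 97.1 and 124 CPM in D-gal-LPS and 1.54, 1.51 and 1.20 CPM in control libraries (5.99 ± 0.16, edgeR adjusted p = 1.82e-11), and its WZB-D-gal-LPS and D-gal-LPS libraries overlapped. All 9 monocyte markers were called higher, with sums of 152 to 177 CPM in WZB-D-gal-LPS, 290 to 297 CPM in D-gal-LPS and 12.4 to 17.1 CPM in control libraries. The neutrophil markers Camp and Ltf, the NK cell marker Ncr1 and the red blood cell marker Slc4a1 had no count in any control library. The part of these cells in the inflammatory lists was not tested.

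Kupffer cell markers, those of the resident macrophages, split. Of 9 markers 5 were called higher, Slc40a1, the iron exporter, lower, and 3 not, and the sums were 525 to 573 CPM in WZB-D-gal-LPS, 634 to 720 CPM in D-gal-LPS and 355 to 388 CPM in control libraries. Marco, a scavenger receptor that LPS induces, rose by 3.14 ± 0.23, whereas Clec4f, a lectin confined to Kupffer cells in mice, was at the control level. Of 11 general macrophage markers 9 were higher and Mertk and Cd163 lower. Of 11 markers of T, NK and B cells 7 were higher, and 4 with total-count scaling, led by Gzmb, a cytotoxic granule protease, at 4.09 ± 0.19. All 10 stellate cell markers, all 6 cholangiocyte markers and 7 of 10 markers of sinusoidal endothelium were higher. Dcn, a matrix proteoglycan of stellate cells, had 338, 322 and 377 CPM in WZB-D-gal-LPS, 604, 593 and 632 CPM in D-gal-LPS and 57.1, 54.3 and 55.1 CPM in control libraries (2.64 ± 0.08, edgeR adjusted p = 6e-11). Every marker sum but those of hepatocytes and cholangiocytes lay between control and D-gal-LPS livers in all 3 pretreated libraries. Hepatocyte markers summed to 132000 to 143000 CPM in WZB-D-gal-LPS, 105000 to 109000 CPM in D-gal-LPS and 87800 to 88400 CPM in control libraries. Cholangiocyte marker sums overlapped between the injured groups, at 177 to 255 CPM in WZB-D-gal-LPS, 164 to 233 CPM in D-gal-LPS and 79.3 to 92.6 CPM in control libraries.

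Red blood cell genes stayed above control, at a small part of their level in D-gal-LPS livers. The sum of 7 markers was 423 to 714 CPM in WZB-D-gal-LPS, 3590 to 4470 CPM in D-gal-LPS and 110 to 140 CPM in control libraries. Hbb-bt, a beta globin gene, had 31.1, 35.1 and 52.1 CPM in WZB-D-gal-LPS, 387, 289 and 427 CPM in D-gal-LPS and 3.997, 5.91 and 5.99 CPM in control libraries (2.89 ± 0.27, edgeR adjusted p = 4.33e-05). The pretreated libraries lay in between without overlap, and 6 of 7 markers were called higher than control. Globin genes have near-identical copies whose reads may be shared, as do the Saa, Gstm, Ugt, Hspa1, Cyp2b, Cyp2c, Cyp3a and Cyp4a genes named in the following paragraphs, and values of single members of these families are uncertain.

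**Figure D3:**
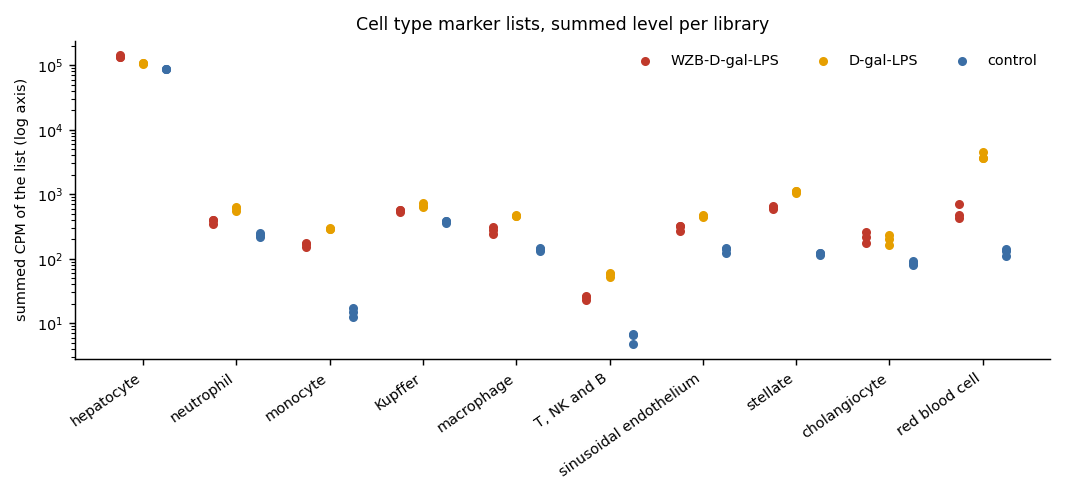
Summed level in CPM (log axis) of each cell type's marker genes in every library, with WZB-D-gal-LPS, D-gal-LPS and control libraries from left to right. Red blood cell markers had 423 to 714 CPM in WZB-D-gal-LPS, 3590 to 4470 CPM in D-gal-LPS and 110 to 140 CPM in control libraries, and cholangiocyte markers were alike in both injured groups.

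Glucose transport and glycolysis genes showed a set that stayed high, where 32.6% of all genes tested were called higher and 28% lower. Slc2a1, the gene of GLUT1, had 19.2, 16.7 and 21.6 CPM in WZB-D-gal-LPS, 36.4, 43.2 and 45.9 CPM in D-gal-LPS and 6.58, 8.204 and 9.28 CPM in control libraries (1.25 ± 0.15 over control, edgeR adjusted p = 1.03e-05). Slc2a3, the transporter GLUT3 of leukocytes, had 2.05, 1.96 and 2.27 CPM in WZB-D-gal-LPS, 4.91, 5.80 and 5.02 CPM in D-gal-LPS and 0.246, 0.302 and 0.0521 CPM in control libraries (3.39 ± 0.42, edgeR adjusted p = 1.11e-05). Both lay between the other groups without overlap. Slc2a2, the hepatocyte transporter GLUT2, had 297, 221 and 312 CPM in WZB-D-gal-LPS, 168, 159 and 181 CPM in D-gal-LPS and 185, 114 and 174 CPM in control libraries and was called higher than both (0.81 ± 0.19 over control, edgeR adjusted p = 0.00545). Per length, the deposited FPKM put Slc2a2 at 35.03 ± 7.00 and Slc2a1 at 3.30 ± 0.487 in WZB-D-gal-LPS livers, and at 23.7 ± 5.29 and 1.65 ± 0.280 in control livers (SD, n = 3). Of 10 glucose and lactate transporters tested 7 were called higher and Slc2a5, a fructose transporter, lower. With total-count scaling 6 were higher and 1 lower. Slc16a3, a lactate exporter of glycolytic cells, rose by 5.66 ± 0.38 and the transporter Slc2a6 by 4.47 ± 0.32. Of 20 glycolysis genes 13 were higher and 4 lower, with a median of 0.55. With total-count scaling 10 were higher and 5 lower, with a median of 0.30. The list was led by Hk2, a hexokinase of proliferating and activated cells (3.90 ± 0.20), and by Pkm, the pyruvate kinase that hepatocytes hold little of (3.196 ± 0.12). Pklr, the liver pyruvate kinase, was among the glycolysis genes called lower (-0.24 ± 0.10, edgeR adjusted p = 0.0488). Its call was lost with the replicate block and with upper quartile factors. It was also lost without control replicate 2 or 3, without WZB-D-gal-LPS replicate 2 or 3 and without D-gal-LPS replicate 3.

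Genes that stayed below control were ranked in the same way, with 5 CPM or more in a group and no overlap of pretreated and control libraries. The 8 lowest were Usp2, Hdhd3, Dact2, Chac1, Inhbe, Acot3, Mfsd2a and Extl1, with log2 fold changes of -5.22 to -4.43. Usp2, a ubiquitin protease under clock control, had 0.495, 0.754 and 0.983 CPM in WZB-D-gal-LPS, 1.04, 0.659 and 1.06 CPM in D-gal-LPS and 29.1, 23.1 and 32.9 CPM in control libraries (-5.22 ± 0.25, edgeR adjusted p = 1.79e-09). Inhbe, the hepatocyte-secreted activin E subunit, had 2.12, 2.41 and 2.15 CPM in WZB-D-gal-LPS, 3.81, 2.24 and 2.95 CPM in D-gal-LPS and 54.7, 64.4 and 63.3 CPM in control libraries (-4.77 ± 0.18, edgeR adjusted p = 2.21e-10). For both, the injured groups overlapped and all D-gal-LPS libraries lay below all control libraries, which the choice required of the pretreated libraries alone. Chac1, which degrades glutathione, was called lower still than in D-gal-LPS livers, with 0.142, 0.151 and 0.246 CPM in WZB-D-gal-LPS, 0.693, 0.593 and 0.354 CPM in D-gal-LPS and 5.78, 4.16 and 6.46 CPM in control libraries. Mfsd2a, a lysophospholipid transporter induced by fasting, had 1.13, 1.43 and 2.52 CPM in WZB-D-gal-LPS, 1.16, 0.461 and 0.118 CPM in D-gal-LPS and 58.6, 23.1 and 43.9 CPM in control libraries, where control libraries varied by more than those of either injured group in CPM.

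Genes of the hepatocyte transcription factor network stayed down almost throughout. Of 16 tested 13 were called lower and none higher, with a median of -1.84 in WZB-D-gal-LPS and -1.62 in D-gal-LPS livers. Tbx3, a factor of pericentral hepatocytes, had 2.26, 1.88 and 2.21 CPM in WZB-D-gal-LPS, 3.76, 2.90 and 2.24 CPM in D-gal-LPS and 34.3, 35.7 and 31.6 CPM in control libraries (-3.99 ± 0.19, edgeR adjusted p = 1.43e-09). Rxra, the partner of many nuclear receptors, had 79.0, 90.7 and 82.5 CPM in WZB-D-gal-LPS, 91.9, 83.4 and 90.5 CPM in D-gal-LPS and 337, 289 and 316 CPM in control libraries (-1.90 ± 0.09, edgeR adjusted p = 1.18e-09). Cebpa fell by 2.89 ± 0.14, and Ppara, the lipid-sensing receptor, by 1.34 ± 0.16. For these 4 genes WZB-D-gal-LPS livers did not differ by a call from D-gal-LPS livers. The members at the control level were Hnf4a and Nr1i2, the xenobiotic receptor PXR. Hnf4a had 575, 554 and 582 CPM in WZB-D-gal-LPS, 417, 433 and 410.4 CPM in D-gal-LPS and 545, 503 and 515 CPM in control libraries (0.13 ± 0.07, edgeR equivalence adjusted p = 0.00281). Nr1i2 had 67.1, 59.2 and 65.9 CPM in WZB-D-gal-LPS, 33.7, 42.3 and 39.7 CPM in D-gal-LPS and 69.7, 54.1 and 67.5 CPM in control libraries (0.01 ± 0.12, edgeR equivalence adjusted p = 0.00558). Onecut1 was undecided and varied between libraries of all groups.

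Clock genes stayed displaced. Of 16 tested 10 were called lower and Arntl, Clock and Cry1 higher, the last of these not with total-count scaling, with a median of -0.81 in WZB-D-gal-LPS and -1.01 in D-gal-LPS livers. The labels do not give the time of day at which livers were taken. Dbp, a factor that transmits the clock's rhythm to its outputs, had 12.9, 8.59 and 12.8 CPM in WZB-D-gal-LPS, 14.8, 12.5 and 14.8 CPM in D-gal-LPS and 128, 134 and 141 CPM in control libraries (-3.55 ± 0.15, edgeR adjusted p = 5.25e-10). Per3, a repressor of the loop, had 8.63, 9.72 and 10.3 CPM in WZB-D-gal-LPS, 13.3, 12.7 and 13.7 CPM in D-gal-LPS and 52.8, 54.4 and 61.6 CPM in control libraries (-2.56 ± 0.12, edgeR adjusted p = 1.17e-09), and was called lower than in D-gal-LPS livers as well. Arntl, the gene of the activator BMAL1, was higher, at 2.19, 1.88 and 2.52 CPM in WZB-D-gal-LPS, 2.72, 3.03 and 2.18 CPM in D-gal-LPS and 0.369, 0.724 and 0.417 CPM in control libraries (2.12 ± 0.36, edgeR adjusted p = 0.000205). The D-box, the motif bound by DBP, was searched as TTATGNAA on both strands and found in 2 of 20 clock promoters (10%) and in 3.38% of all promoters. Per3 held it at 2 places, 1 of them beginning 205 bases and the other ending 151 bases before the start. Its stretch, at chr4:151044666-151044915 on the minus strand, is shown as that of a clock gene that holds the motif, with the matches in capitals. A part of DBP in the lower level of Per3 was not tested.
Per3: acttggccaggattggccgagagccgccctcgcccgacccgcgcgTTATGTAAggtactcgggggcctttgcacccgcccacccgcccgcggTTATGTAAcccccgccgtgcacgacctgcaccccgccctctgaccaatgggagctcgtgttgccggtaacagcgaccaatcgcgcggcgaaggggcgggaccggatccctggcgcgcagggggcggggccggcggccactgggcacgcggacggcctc

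Cholesterol genes were mostly lower, whereas bile acid and lipogenesis genes went both ways. Of 16 bile acid genes 8 were higher and 4 lower, with a median of 0.60, and the lower members were Cyp7a1, Cyp8b1, Baat and Nr0b2. Cyp7a1, whose enzyme sets the rate of bile acid production, had 35.5, 31.0 and 28.0 CPM in WZB-D-gal-LPS, 42.8, 30.8 and 31.3 CPM in D-gal-LPS and 250.7, 177 and 242 CPM in control libraries (-2.83 ± 0.17, edgeR adjusted p = 2.84e-07), and the injured groups overlapped. Slco1b2, an uptake transporter for bile acids and drugs, was higher, at 1028, 1116 and 1131 CPM in WZB-D-gal-LPS, 508, 699 and 591 CPM in D-gal-LPS and 512, 442 and 444 CPM in control libraries (1.23 ± 0.11, edgeR adjusted p = 6.47e-07). Of 17 cholesterol genes 11 were lower and 3 higher, with a median of -0.79, and 1 was higher with total-count scaling. Mvd, an enzyme of the mevalonate pathway, fell by 2.24 ± 0.18. Of 15 lipogenesis genes 5 were higher and 5 lower, close to the shares over all genes tested (32.6% higher and 28% lower). The median of the lipogenesis genes was 0.15, which was -0.10 with total-count scaling. Srebf1, their main transcription factor, had 25.2, 18.9 and 20.5 CPM in WZB-D-gal-LPS, 29.2, 38.5 and 31.6 CPM in D-gal-LPS and 82.3, 118 and 119 CPM in control libraries (-2.30 ± 0.17, edgeR adjusted p = 4.02e-07). Fasn fell by 1.80 ± 0.33 and Acaca by 1.27 ± 0.13, which make fatty acids, while Scd1 and Elovl5, which desaturate and elongate them, were higher.

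In carbohydrate and nitrogen metabolism single enzymes stood far below control. For the list counts, 32.6% of all genes tested were called higher and 28% lower. Of 14 gluconeogenesis and glycogen genes 5 were higher and 3 lower, and 3 were higher and 6 lower with total-count scaling. G6pc, the last step of glucose release, had 37.7, 40.2 and 37.9 CPM in WZB-D-gal-LPS, 36.1, 42.6 and 33.8 CPM in D-gal-LPS and 273, 196 and 232 CPM in control libraries (-2.60 ± 0.12, edgeR adjusted p = 2.02e-09). Of 19 urea cycle and amino acid genes 10 were higher and 3 lower, and 7 were higher and 6 lower with total-count scaling. Nags, which makes the activator of carbamoyl phosphate synthetase, had 2.55, 3.16 and 3.32 CPM in WZB-D-gal-LPS, 5.37, 5.21 and 4.43 CPM in D-gal-LPS and 46.5, 54.7 and 56.5 CPM in control libraries (-4.12 ± 0.15, edgeR adjusted p = 1.78e-10), and was further from control than in D-gal-LPS livers (-0.73 ± 0.15, edgeR adjusted p = 0.00338). Cps1, that synthetase itself, was higher, at 4038, 3470.2 and 3992 CPM in WZB-D-gal-LPS, 2191, 2762 and 2274 CPM in D-gal-LPS and 2003, 1652 and 1834 CPM in control libraries (1.07 ± 0.11, edgeR adjusted p = 1.74e-06). The genes of the enzyme and of its activator's synthesis thus differed from control in opposite directions. Of 15 galactose and uridine genes 3 were higher and 4 lower, with Upp1, which degrades uridine, at 3.03 ± 0.17 and Ugdh, which uses UDP-glucose, at -1.17 ± 0.09.

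Acute phase genes lay lower after WZB and D-gal/LPS than in control livers. Of 21 tested 16 were called lower and Cp higher, with a median of -0.92 in WZB-D-gal-LPS and -0.61 in D-gal-LPS livers. The call of Cp was lost with DESeq2, with total-count scaling and with several other settings. Saa1, the gene of serum amyloid A, had 45.9, 34.96 and 64.9 CPM in WZB-D-gal-LPS, 736, 66.5 and 357 CPM in D-gal-LPS and 1309.9, 1245 and 1076 CPM in control libraries (-4.64 ± 0.89, edgeR adjusted p = 0.00427). Saa2 had 20.7, 25.1 and 31.1 CPM in WZB-D-gal-LPS, 940.4, 29.1 and 413 CPM in D-gal-LPS and 1573, 1694 and 1092 CPM in control libraries (-5.82 ± 1.24, edgeR adjusted p = 0.0068). The pretreated libraries were uniformly low, the D-gal-LPS libraries were spread between the pretreated and the control level, and control libraries overlapped neither. Hamp, the iron hormone hepcidin, fell by 3.51 ± 0.31, and Orm2, a plasma binding protein, by 3.90 ± 0.60, while Serpina3n, a protease inhibitor, had 594, 578 and 593 CPM in WZB-D-gal-LPS, 588, 534 and 534 CPM in D-gal-LPS and 1684, 1663 and 1584 CPM in control libraries (-1.48 ± 0.08, edgeR adjusted p = 3.07e-09). Of 16 plasma carrier and apolipoprotein genes 9 were higher and Apoa5 lower. Alb, the gene of serum albumin, had 100600, 88322 and 91760 CPM in WZB-D-gal-LPS, 74556, 70727 and 70456 CPM in D-gal-LPS and 51481, 52203 and 50906 CPM in control libraries (0.86 ± 0.07, edgeR adjusted p = 2.9e-07). Apoa5, which promotes triglyceride clearance, fell by 1.87 ± 0.14.

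Stress and growth lists moved less uniformly, and over all genes tested 32.6% were called higher and 28% lower. Of 15 genes of ER stress and the integrated stress response 8 were lower and 3 higher, with Xbp1, a factor of the unfolded protein response, at 61.4, 54.8 and 70.1 CPM in WZB-D-gal-LPS, 94.4, 68.5 and 84.4 CPM in D-gal-LPS and 283, 299 and 286 CPM in control libraries (-2.22 ± 0.12, edgeR adjusted p = 6.75e-09). Among 13 targets of NRF2 and metallothionein genes, 6 were higher and 6 lower. Slc7a11, the cystine importer, rose by 5.74 ± 0.43, and Mt1, a metal-binding protein gene, fell by 2.39 ± 0.16. Of 12 heat shock genes 8 were higher, and 3 with total-count scaling, with Hspa1a at 2.93 ± 0.27. Cell death genes were split, with 7 of 20 higher and 8 lower and a median of 0.10 (-0.15 with total-count scaling). Bcl2a1b, an antiapoptotic gene of leukocytes, rose by 3.47 ± 0.31, and Bid, which links death receptors to mitochondria, fell by 1.42 ± 0.16. Of 15 cell cycle genes 4 were higher, and 2 with total-count scaling, and Ccnd1 and Ccne1 were lower. Of 15 growth hormone and IGF genes 9 were higher, and 5 with total-count scaling, with Igfbp3 at 2.31 ± 0.15 and Socs3, a brake on cytokine signalling, at 1.60 ± 0.12.

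**Figure D4:**
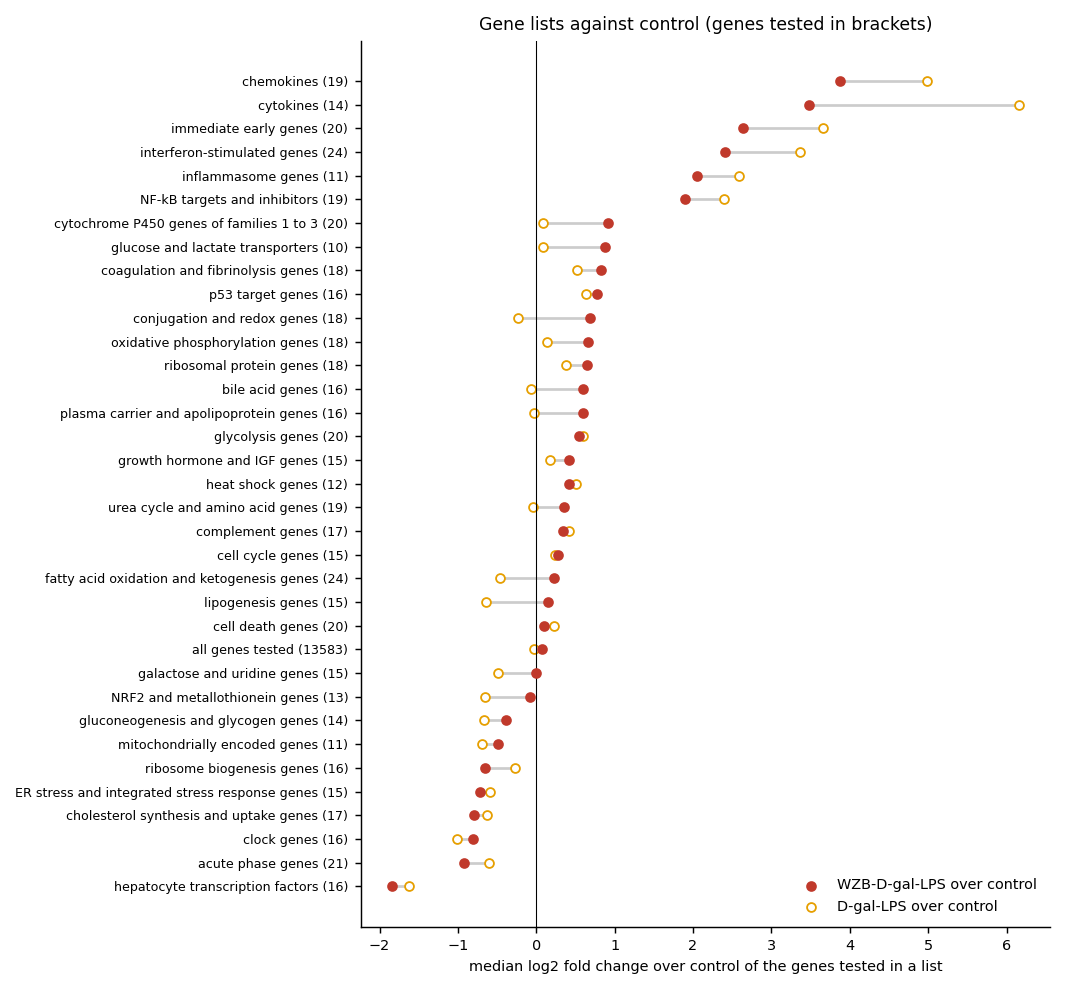
Median log2 fold change over control (horizontal axis) of the genes tested in each list, for WZB-D-gal-LPS (filled points) and D-gal-LPS livers (open points), which share the control libraries. The medians of the cytokine, chemokine, interferon, NF-kB, immediate early and inflammasome lists lay between 1.90 and 3.87 in WZB-D-gal-LPS and between 2.40 and 6.16 in D-gal-LPS livers, those of hepatocyte transcription factors at -1.84 in WZB-D-gal-LPS and -1.62 in D-gal-LPS livers, and cytochrome P450 genes at 0.91 and 0.08 in the same order.

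Few injury genes were placed at the control level. They were 13, of which 10 had been higher and 3 lower in D-gal-LPS than in control livers, and all were near 2-fold changes of injury, from 1.03 to 1.38 and from -1.34 to -1.02 on the log2 scale. Ifrd1, a transcriptional coregulator, had 22.0, 18.5 and 22.4 CPM in WZB-D-gal-LPS, 51.4, 48.2 and 47.0 CPM in D-gal-LPS and 21.6, 15.4 and 19.4 CPM in control libraries (0.16 ± 0.13 over control, edgeR equivalence adjusted p = 0.0344). Clec4f, the Kupffer cell lectin, had 35.2, 28.1 and 33.8 CPM in WZB-D-gal-LPS, 88.4, 73.7 and 81.3 CPM in D-gal-LPS and 29.9, 29.1 and 34.9 CPM in control libraries (0.05 ± 0.12, edgeR equivalence adjusted p = 0.00755). Vcl, the gene of the adhesion protein vinculin, had 25.3, 17.9 and 25.8 CPM in WZB-D-gal-LPS, 56.4, 57.0 and 60.4 CPM in D-gal-LPS and 20.1, 24.4 and 25.7 CPM in control libraries (-0.02 ± 0.14, edgeR equivalence adjusted p = 0.0143). In these 3 genes the pretreated libraries overlapped control and stood well apart from D-gal-LPS. Nampt, the rate-limiting enzyme of NAD salvage, was within 1.5-fold and also called different, with 84.8, 78.7 and 87.2 CPM in WZB-D-gal-LPS, 169, 146 and 169 CPM in D-gal-LPS and 72.7, 71.3 and 69.3 CPM in control libraries (0.23 ± 0.08, edgeR adjusted p = 0.0266), a call lost with DESeq2 and with total-count scaling. Tor1aip1, a protein of the inner nuclear membrane, differed from control by 0.13 ± 0.12 and Ascc3, a helicase, by 0.00 ± 0.15. The other members higher with injury were Baz1a, Mkrn1, B4galt5 and Hivep2.

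Among those that injury lowered, Csad, an enzyme of taurine synthesis, had 159, 220.2 and 198 CPM in WZB-D-gal-LPS, 92.9, 93.4 and 102 CPM in D-gal-LPS and 201, 219.7 and 218 CPM in control libraries (-0.15 ± 0.10, edgeR equivalence adjusted p = 0.0116). Slc17a8, a vesicular glutamate transporter, had 13.3, 14.8 and 16.7 CPM in WZB-D-gal-LPS, 5.20, 6.85 and 4.90 CPM in D-gal-LPS and 13.7, 14.7 and 14.3 CPM in control libraries (0.07 ± 0.15, edgeR equivalence adjusted p = 0.0279). Zfand4 had 16.8, 22.1 and 22.8 CPM in WZB-D-gal-LPS, 8.03, 10.5 and 10.2 CPM in D-gal-LPS and 19.1, 20.6 and 18.5 CPM in control libraries (0.09 ± 0.14, edgeR equivalence adjusted p = 0.0263). Pretreated and control libraries overlapped in all 3. The placement within 1.5-fold depends on the margin and the number of libraries. With a 2-fold margin 192 injury genes were placed, with total-count scaling 26, and 8 without WZB-D-gal-LPS replicate 1, without WZB-D-gal-LPS replicate 3 or without control replicate 3. Vcl, Csad, Slc17a8, Zfand4 and Ascc3 lost the placement with total-count scaling.

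Fatty acid oxidation genes went both ways against control, where 32.6% of all genes tested were called higher and 28% lower. Of 24 tested 11 were higher and 3 lower than control, 6 were at the control level, and the median was 0.23 in WZB-D-gal-LPS and -0.47 in D-gal-LPS livers. With total-count scaling 7 were higher and 6 lower and the median was -0.02. Ehhadh, a peroxisomal oxidation enzyme, was higher, at 246, 206 and 222 CPM in WZB-D-gal-LPS, 108, 129 and 111 CPM in D-gal-LPS and 126, 133 and 117 CPM in control libraries (0.84 ± 0.09, edgeR adjusted p = 4.94e-06). Cyp4a14, a fatty acid hydroxylase under the control of PPAR-alpha, was undecided, with 164, 90.0 and 114 CPM in WZB-D-gal-LPS, 13.1, 23.7 and 19.9 CPM in D-gal-LPS and 103, 97.0 and 103 CPM in control libraries (0.28 ± 0.26, edgeR equivalence adjusted p = 0.483). Its pretreated libraries lay around the control level with a wider spread. Fgf21, a hormone under the same receptor, stayed low, at 0.566, 0.0754 and 0.553 CPM in WZB-D-gal-LPS, 0.520, 0 and 0.177 CPM in D-gal-LPS and 8.24, 8.51 and 8.65 CPM in control libraries (-4.35 ± 0.52, edgeR adjusted p = 1.82e-05).

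No injury gene was called beyond the control level by edgeR's quasi-likelihood test, by DESeq2 or by voom with limma. At an unadjusted p under 0.05 edgeR placed 1 there, Cbfa2t2, and 44 of 4185 injury genes (1.05%) had an estimate on the other side of control. Single genes were called with other settings, namely RP24-470M22.10 with the replicate block, Inhba with total-count scaling and Nup98 with a filter of 5 CPM. Genes with smaller injury changes did cross. Of the 7931 genes called in D-gal-LPS livers at any size (58.4%), a definition chosen after seeing the data, 54 were called on the other side of control in WZB-D-gal-LPS livers, 34 of them above it. With total-count scaling 13 of these 34 and 20 of the 20 below control kept their call and direction.

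Among those above control were enzymes that metabolise drugs, retinoids and lipids. Aldh1a1, which makes retinoic acid, had 1158, 1275 and 1162 CPM in WZB-D-gal-LPS, 526, 590.4 and 576 CPM in D-gal-LPS and 685, 681 and 671 CPM in control libraries (0.82 ± 0.08, edgeR adjusted p = 1.05e-06). Me1, the malic enzyme that supplies NADPH, had 254, 236 and 223 CPM in WZB-D-gal-LPS, 80.1, 104 and 86.2 CPM in D-gal-LPS and 147, 144 and 142 CPM in control libraries (0.72 ± 0.10, edgeR adjusted p = 2.38e-05). For both, D-gal-LPS libraries lay below and pretreated libraries above every control library. Sult1d1, a sulfotransferase, rose by 0.93 ± 0.10, Gstt3, a glutathione transferase, by 0.93 ± 0.14, and Ugt1a5, which shares exons with its gene cluster, by 0.75 ± 0.10. Below control lay Ube2o, a ubiquitin-conjugating enzyme, with 4.17, 3.99 and 4.24 CPM in WZB-D-gal-LPS, 16.3, 10.6 and 15.5 CPM in D-gal-LPS and 8.30, 8.93 and 8.50 CPM in control libraries (-1.05 ± 0.18, edgeR adjusted p = 0.000237).

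A further 108 of 13583 genes tested were called different from control with WZB only. The definition asks for a call of at least 2-fold over control and a call in the same direction over D-gal-LPS livers. It also asks for no call between D-gal-LPS and control livers, which is not a test of no change. Of the 108 genes 72 were higher and 36 lower. The highest among those past 5 CPM was Cyp2b10, a drug-metabolising P450 under the control of the receptor CAR, with 16.7, 16.1 and 19.8 CPM in WZB-D-gal-LPS, 1.502, 3.56 and 3.13 CPM in D-gal-LPS and 2.71, 1.57 and 2.87 CPM in control libraries (2.87 ± 0.28, edgeR adjusted p = 2.45e-06). Every pretreated library stood above every library of the other groups, which overlapped each other. Nr1i3, the gene of CAR itself, was lower, at 121, 53.4 and 128 CPM in WZB-D-gal-LPS, 116, 146 and 132 CPM in D-gal-LPS and 463, 399 and 473 CPM in control libraries (-2.14 ± 0.32, edgeR adjusted p = 0.00107). The stretch before Cyp2b10, at chr7:25897408-25897619 on the plus strand, is shown as that of the gene with the highest change of the 108 past 5 CPM. It was cut as described above and held a D-box, in capitals, 58 to 51 bases before the RefSeq start. A D-box was held by 3 of 20 promoters of the P450 list (15%) and by 3.38% of all promoters, and 3 promoters are too few to describe the list. The enhancer through which CAR is known to act on this gene lies further upstream than this window.
Cyp2b10: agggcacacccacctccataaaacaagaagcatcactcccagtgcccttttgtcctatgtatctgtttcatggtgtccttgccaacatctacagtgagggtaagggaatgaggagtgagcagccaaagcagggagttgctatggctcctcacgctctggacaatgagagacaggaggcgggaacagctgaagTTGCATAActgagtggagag

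Further members higher with WZB only were enzymes of drug and lipid metabolism. Cyp2c55 had 23.6, 23.7 and 21.6 CPM in WZB-D-gal-LPS, 5.60, 7.32 and 6.49 CPM in D-gal-LPS and 8.30, 6.76 and 7.24 CPM in control libraries (1.63 ± 0.14, edgeR adjusted p = 5.66e-07). Gstm3, a glutathione transferase, had 248, 277 and 237 CPM in WZB-D-gal-LPS, 76.6, 83.4 and 98.8 CPM in D-gal-LPS and 77.2, 81.4 and 92.3 CPM in control libraries (1.60 ± 0.11, edgeR adjusted p = 4.51e-08). In both genes the D-gal-LPS libraries overlapped control and the pretreated libraries did not. Elovl5, which elongates polyunsaturated fatty acids, had 636, 511 and 527 CPM in WZB-D-gal-LPS, 181, 264 and 207 CPM in D-gal-LPS and 195, 210.0 and 191 CPM in control libraries (1.49 ± 0.13, edgeR adjusted p = 1.4e-06). Scd1, the delta-9 desaturase, had 12790, 6161 and 9079 CPM in WZB-D-gal-LPS, 2233, 2781 and 2415 CPM in D-gal-LPS and 3610.3, 3372 and 3321 CPM in control libraries (1.44 ± 0.24, edgeR adjusted p = 0.0012). Scd1 varied more between pretreated libraries than between control libraries, yet the pretreated libraries did not overlap control. All D-gal-LPS libraries lay below every control library for Scd1.

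Saa1 and Saa2, described above, met the definition in the lower direction, although all 3 D-gal-LPS libraries also lay below every control library and 1 of them was near or within the pretreated range. Cd163, the macrophage receptor for haemoglobin bound to haptoglobin, had 2.34, 1.43 and 2.46 CPM in WZB-D-gal-LPS, 5.37, 5.34 and 5.07 CPM in D-gal-LPS and 5.96, 4.83 and 5.68 CPM in control libraries (-1.39 ± 0.23, edgeR adjusted p = 0.000162). Palld, an actin-bundling protein gene, had 3.11, 2.64 and 2.70 CPM in WZB-D-gal-LPS, 8.26, 4.94 and 8.73 CPM in D-gal-LPS and 9.16, 6.52 and 8.60 CPM in control libraries (-1.52 ± 0.24, edgeR adjusted p = 0.000108). Pdzrn3, a ubiquitin ligase gene, fell by 1.39 ± 0.27. All 3 pretreated libraries lay below every other library for Cd163, Palld and Pdzrn3. Zfp62, a zinc finger gene, fell by 1.68 ± 0.47 (edgeR adjusted p = 0.0126), a call that was lost with voom and without WZB-D-gal-LPS replicate 2.

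The P450 and conjugation lists as a whole lay above control. Of 20 P450 genes of families 1 to 3, 14 were called higher and Cyp3a13 lower, with a median of 0.91 in WZB-D-gal-LPS and 0.08 in D-gal-LPS livers, and 12 were higher and 3 lower with total-count scaling. Cyp3a11, a broad drug oxidase, had 8143, 10673 and 10125 CPM in WZB-D-gal-LPS, 4538, 5176 and 5482 CPM in D-gal-LPS and 4888, 4685 and 4583 CPM in control libraries (1.03 ± 0.10, edgeR adjusted p = 1.93e-06). Cyp2j5 had 849.9, 831 and 856 CPM in WZB-D-gal-LPS, 599, 625 and 592 CPM in D-gal-LPS and 400.1, 357 and 365 CPM in control libraries (1.18 ± 0.07, edgeR adjusted p = 2.81e-08). Of 18 conjugation and redox genes 14 were higher and Por, which passes electrons to P450 enzymes, was lower (-0.47 ± 0.13), with a median of 0.68 in WZB-D-gal-LPS and -0.23 in D-gal-LPS livers, and 9 were higher with total-count scaling. Ugt2b1, a glucuronosyltransferase, rose by 1.14 ± 0.08 (edgeR adjusted p = 1.01e-07). The sum of hepatocyte markers, most of it Alb, moved in the same direction, as given above, while of the 8 markers 4 were called higher and Fgb and Hal lower, and 3 were higher and 3 lower with total-count scaling. The part of hepatocyte content in these lists was not tested.

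**Figure D5:**
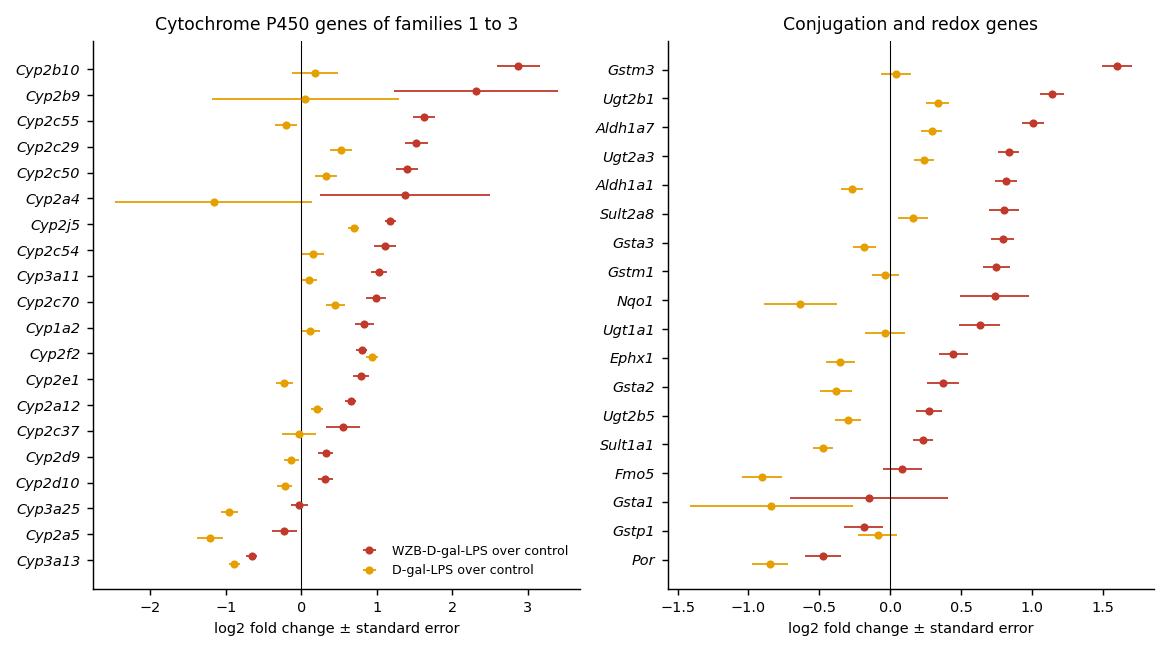
Log2 fold change over control with its standard error (horizontal axes) of the P450 genes (left) and conjugation and redox genes (right), for WZB-D-gal-LPS (red) and D-gal-LPS livers (orange), 3 libraries a group. Cyp2b10 stands furthest right among the P450 genes, at 2.87 in WZB-D-gal-LPS and 0.18 in D-gal-LPS livers, and Gstm3 among the conjugation genes, at 1.60 and 0.04 in the same order.

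Nuclear genes of oxidative phosphorylation and ribosomal protein genes lay above control, and mitochondrially encoded genes below it. Of 18 genes of oxidative phosphorylation 17 were called higher and none lower, with a median of 0.66 in WZB-D-gal-LPS and 0.14 in D-gal-LPS livers, and 15 were higher with total-count scaling. Sdha, the catalytic subunit of complex II, had 515, 542 and 557 CPM in WZB-D-gal-LPS, 371, 418 and 378 CPM in D-gal-LPS and 233, 236 and 223 CPM in control libraries (1.22 ± 0.08, edgeR adjusted p = 2.61e-08). Of 11 mitochondrially encoded genes 8 were lower and mt-Co1 higher, which lost its call with DESeq2, with total-count scaling and with several other settings. mt-Nd3, a subunit of complex I, had 257, 188 and 180.2 CPM in WZB-D-gal-LPS, 98.0, 114 and 117 CPM in D-gal-LPS and 745, 729 and 635 CPM in control libraries (-1.75 ± 0.13, edgeR adjusted p = 4.32e-07). Mitochondrial transcripts took 13.4 to 14.4% of counts in WZB-D-gal-LPS and 17.2 to 20.3% in control libraries. Of 18 ribosomal protein genes 17 were higher, and 11 with total-count scaling, whereas 10 of 16 ribosome biogenesis genes were lower and Npm1 higher. Rplp0, the stalk protein of the large subunit, had 367, 373 and 343 CPM in WZB-D-gal-LPS, 319.8, 369 and 359 CPM in D-gal-LPS and 179.6, 184 and 178 CPM in control libraries (1.002 ± 0.08, edgeR adjusted p = 1.74e-07). Polr1a, the catalytic subunit of RNA polymerase I, had 13.8, 12.4 and 12.7 CPM in WZB-D-gal-LPS, 19.9, 16.2 and 20.4 CPM in D-gal-LPS and 24.3, 27.0 and 29.9 CPM in control libraries (-1.06 ± 0.13, edgeR adjusted p = 9.78e-06). Of 17 complement genes 11 were higher and none lower, and 6 higher and 2 lower with total-count scaling, led by C5ar1, the C5a receptor of myeloid cells (4.44 ± 0.17), and by C9 (1.02 ± 0.09), a pore-forming component made in hepatocytes.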

How the data were processed

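Whole liver RNA was sequenced from 9 mouse libraries in 3 groups of 3, grouped by their labels, and 6 of them form the comparison described. Per the labels' protocols, mRNA was isolated from total RNA and made into libraries by an Illumina protocol. The authors deposited raw read counts per gene and FPKM, a fragment count scaled for gene length and library size, in a single table, and per the submitters' processing notes GRCm38.p4 (mm10), R 4.1.2 and limma were used. Not given in the sources used here were the aligner, the counter, the annotation and the use of strand, so antisense or overlapping partners of a gene cannot be told apart from it. Of 21 value columns, 3 match no sample label and were left out.

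From the deposited counts of all 9 libraries, 13583 of 34745 genes (99.93% of counts) passed edgeR's filterByExpr and were fitted in 1 model of 3 groups with edgeR 4.0.16 (R 4.3.3), TMM factors and the quasi-likelihood test on 6 residual degrees of freedom, with Benjamini-Hochberg adjustment over all genes. Placement within 1.5-fold of control used 2 one-sided tests in the same fit. The authors' FPKM served only to compare levels between genes. Totals of 15072509 to 18106895 counts a library leave genes of few counts imprecise. Counting error only is covered by the lower bounds from 3 counts. Promoter sequences came from RefSeq (GRCm38.p6). In the main fit, the test of WZB-D-gal-LPS over control and the placement within 1.5-fold were first tested on simulated data. The simulation gave all genes the same dispersion, and the other comparisons and the alternatives were not simulated.

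Named genes were 12 chosen genes, the most displaced members of each class with 5 CPM or more in a group, and 2 members a list, those of smallest adjusted p, and further list members were chosen after their values were seen. Members of the still abnormal class were also required to show no overlap of pretreated and control libraries. The comparison, its members and the 44 lists were chosen with earlier results of these data known. Alternatives were DESeq2 1.42.0, voom with limma 3.58.1, other scalings and filters, a fit of 2 groups, a replicate block, a 2-fold margin, calls of at least 2-fold, and leaving out each library. Some genes that the naming rule or the lists hold are not reported here by name, and the counts of each list include them.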

Additional observations from a re-analysis of the deposited data

How the results depend on the processing

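With total-count scaling many called genes among those of the lists and those named lost their call. Most kept the sign of their log2 fold change, such as C3 (0.0621, against 0.316) and Igf1 (0.0857, against 0.343). In 5 the sign also turned, namely Mbl2 (-0.0726, against 0.184), mt-Co1 (-0.00557, against 0.249), Nampt (-0.0205, against 0.233), Pcx (-0.0172, against 0.236) and Sult1a1 (-0.0201, against 0.234). The balance of calls turned, with 4430 higher and 3806 lower genes against 3248 and 5061 with total-count scaling, 3847 and 4079 in a fit of the 2 groups, 3250 and 3412 with the 5 CPM filter, and 4045 and 4167 without D-gal-LPS replicate 2. With total-count scaling the median of all genes turned to -0.179, against 0.0749, and those of the fatty acid oxidation, lipogenesis and cell death lists to -0.02, -0.10 and -0.15, against 0.23, 0.15 and 0.10 in the same order. With calls of at least 2-fold, 2290 genes were higher and 1861 lower in WZB-D-gal-LPS than in control livers. Leaving out 1 library at a time gave 4045 to 4385 higher genes, 3526 to 4167 lower genes, 3520 to 3675 injury genes still abnormal and 94 to 139 genes that differed with WZB only. A filter of 5 CPM in 3 libraries, which tests fewer genes, left 2447 injury genes still abnormal. Genes within the margin of control numbered 5564 with a 2-fold margin and 786 to 1483 on leaving out 1 library, the lowest without WZB-D-gal-LPS replicate 3. Injury genes among them numbered 192 with the 2-fold margin, 26 with total-count scaling and 8 to 18 on leaving out 1 library. Injury genes called beyond control numbered 1 with the replicate block, 1 with total-count scaling, 1 with the 5 CPM filter and 0 to 2 on leaving out 1 library. For injury genes of any size, a definition added after seeing the data, 6267 were still abnormal, 609 at the control level and 54 beyond it. Of the 34 genes beyond and above control, 13 kept their call with total-count scaling, and of the 20 beyond and below it, 11 did without control replicate 1 and 13 without WZB-D-gal-LPS replicate 1 or 2. The cause was not tested. Replicate numbers are shared between groups, but the labels do not say that they pair the libraries. Same-numbered WZB-D-gal-LPS and control libraries correlated at -0.0118, -0.00775 and -0.0388 in their deviations. With 3 libraries a group these values show no pairing but cannot exclude one. Depth limits genes of a few counts, and with 3 libraries a group an exact permutation test of a single gene cannot go below p = 0.1.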
